A study of Mus musculus with 13 samples.

Results

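ATF4 and 8 genes of the amino acid response were followed in mouse jejunal epithelial cells under meal-skipping feeding patterns. The 9 genes (Atf4, Asns, Phgdh, Psat1, Trib3, Ddit3, Chac1, Sesn2 and Ddit4) were taken by symbol from a table of raw read counts for 21868 gene symbols. All 9 were present, and all 9 were among the 14300 genes that passed the filter on low counts and were tested. Cells negative for CD45, CD11b, CD3 and B220 and positive for EpCAM, an epithelial surface protein, were sorted from digested jejunum, and their polyadenylated RNA was sequenced. Zeitgeber time (ZT) counts hours from lights on, so that mice, which are nocturnal, feed mostly in its later part.

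The 13 libraries fell into 5 groups. BSF (breakfast-skipping feeding, 2 libraries) came from mice given food from ZT16 to ZT24. BSF_C (3 libraries) carries a label that joins breakfast skipping with control, and no feeding window is stated for it. LSF (lunch-skipping feeding, 3 libraries) came from mice fed in 2 bouts, ZT12 to ZT16 and then ZT20 to ZT24, and DSF (dinner-skipping feeding, 2 libraries) from mice fed from ZT12 to ZT20. The BSF, LSF and DSF schedules lasted 2 weeks. The con group (3 libraries) is labelled control, and its feeding window is not given in the sources used here. Strain, sex, age and the time of tissue collection are not given there either. The labels call the libraries biological replicates without saying whether each is 1 mouse, so p-values measure the spread between these libraries, which may be technical.

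When amino acids run short, or when the endoplasmic reticulum is stressed, kinases such as GCN2 and PERK phosphorylate the initiation factor eIF2. General translation then slows, while the mRNA of the transcription factor ATF4 is translated more, so that much of ATF4's control lies beyond the mRNA level measured here. ATF4 pairs with C/EBP proteins on composite DNA elements and switches on amino acid synthesis, amino acid uptake and tRNA charging, as well as feedback genes such as Trib3. In the intestine, epithelial cells take up dietary amino acids and also use many of them as fuel.

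Near the start sites of the member genes, the composite C/EBP-ATF element, written TGATGNAA, was searched on both strands from 250 bases before to 50 bases after each RefSeq start (GRCm38.p6). All 9 members had such a window. The element was found in 3 of the 9 members (Asns, Chac1 and Trib3), against 4.51% of all 27025 genes with a window. A variant, TGGTGCAA, chosen after the sequences were read, was found in 2 members (Psat1 and Trib3), against 0.644% of those genes. No match of the variant overlapped a match of the element, and a match describes the sequence only. Trib3 is shown because it was the member that differed most between the feeding patterns, and the other 3 because they hold the element or its variant before the start. The stretches below are read 5′ to 3′ on the strand of the gene, with the element or variant in capitals. In Trib3 (chr2:152344062-152344117, minus strand) it began 33 bases before the start, and in Asns (chr6:7693210-7693256, minus strand) 23 bases before. In Psat1 (chr19:15925164-15925219, minus strand) it began 136 bases before the start, and in Chac1 (chr2:119351025-119351080, plus strand) 193 bases before, where it is written as its reverse complement. The GENCODE spans of Asns and Psat1 begin further upstream, so the Psat1 stretch lies inside the annotated gene and the Asns stretch does so except for its first 2 bases.
Trib3: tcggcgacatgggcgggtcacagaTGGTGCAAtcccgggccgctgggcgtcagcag
Asns: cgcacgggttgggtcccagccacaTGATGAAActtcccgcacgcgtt
Psat1: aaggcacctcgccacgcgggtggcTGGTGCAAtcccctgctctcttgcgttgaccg
Chac1: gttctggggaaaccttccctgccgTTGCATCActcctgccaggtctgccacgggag
In Trib3 the element TGATGNAA itself was not before the RefSeq start but 14 bases after it, on the opposite strand. The GENCODE span of Trib3 begins further downstream, at chr2:152344032, so by that annotation this match lies before the start.

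Library totals ran from 7127769 to 8589351 counts in BSF, BSF_C, LSF and DSF and from 4851239 to 5202146 in con. Levels are scaled to library size as CPM, with trimmed means (TMM), and the con libraries stood apart from the other 10. Genes of the epithelium list were detected throughout, and their summed level was 4846 to 5251 CPM in the 10 libraries and 4478 to 5018 CPM in con. Single genes of that list differed in both directions: Epcam averaged 322 to 375 CPM in the 4 feeding groups and 193 CPM in con, Krt20 554 to 684 CPM and 182 CPM, and Vil1 798 to 927 CPM and 407 CPM, while Cdh1 averaged 718 to 851 CPM in the feeding groups and 2020 CPM in con. Skin keratinocyte genes (8 of 8 detected in con) summed to 4.17 to 6.20 CPM in the 10 libraries, where Calm4 and Krtdap had no count, and to 447 to 540 CPM in con. Leukocyte genes summed to 66.5 to 111 CPM in the 10 libraries and to 13.1 to 15.6 CPM in con, where Cd3g had no count. Most of the con sum was Itgam, with group means of 5.81 to 7.92 CPM in the feeding groups and 12.1 CPM in con, and Cd79a was likewise highest in con. The heart muscle list summed to 187 to 365 CPM in the 10 libraries and to 118 to 130.3 CPM in con, where Myh6, Actc1, Myl2, Myl3 and Nppa had no count. Nearly all of the con sum was Ldb3, with group means of 99.9 to 112 CPM in the feeding groups and 117 CPM in con. Fibroblast genes summed to 10.5 to 50.1 CPM in the 10 libraries and to at most 0.619 CPM in con. A batch of its own for con cannot be told apart from the group.

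Per kilobase of exon, Atf4 had by far the highest mean level of the 9 members over all libraries, at 150.1 CPM per kb. Ddit4 followed at 38.5 and Ddit3 at 14.0 CPM per kb, and Sesn2 and Psat1 lay close together at 6.75 and 6.40 CPM per kb. Trib3 had 3.45, Asns 2.83, Chac1 2.82 and Phgdh 1.25 CPM per kb. Phgdh and Chac1 rest on few counts per library, from 7 to 37 for Phgdh and from 11 to 58 for Chac1. The message of the regulator was abundant and those of several of its textbook targets were scarce in these sorted cells. ATF4 protein was not measured.

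**Figure D1:**
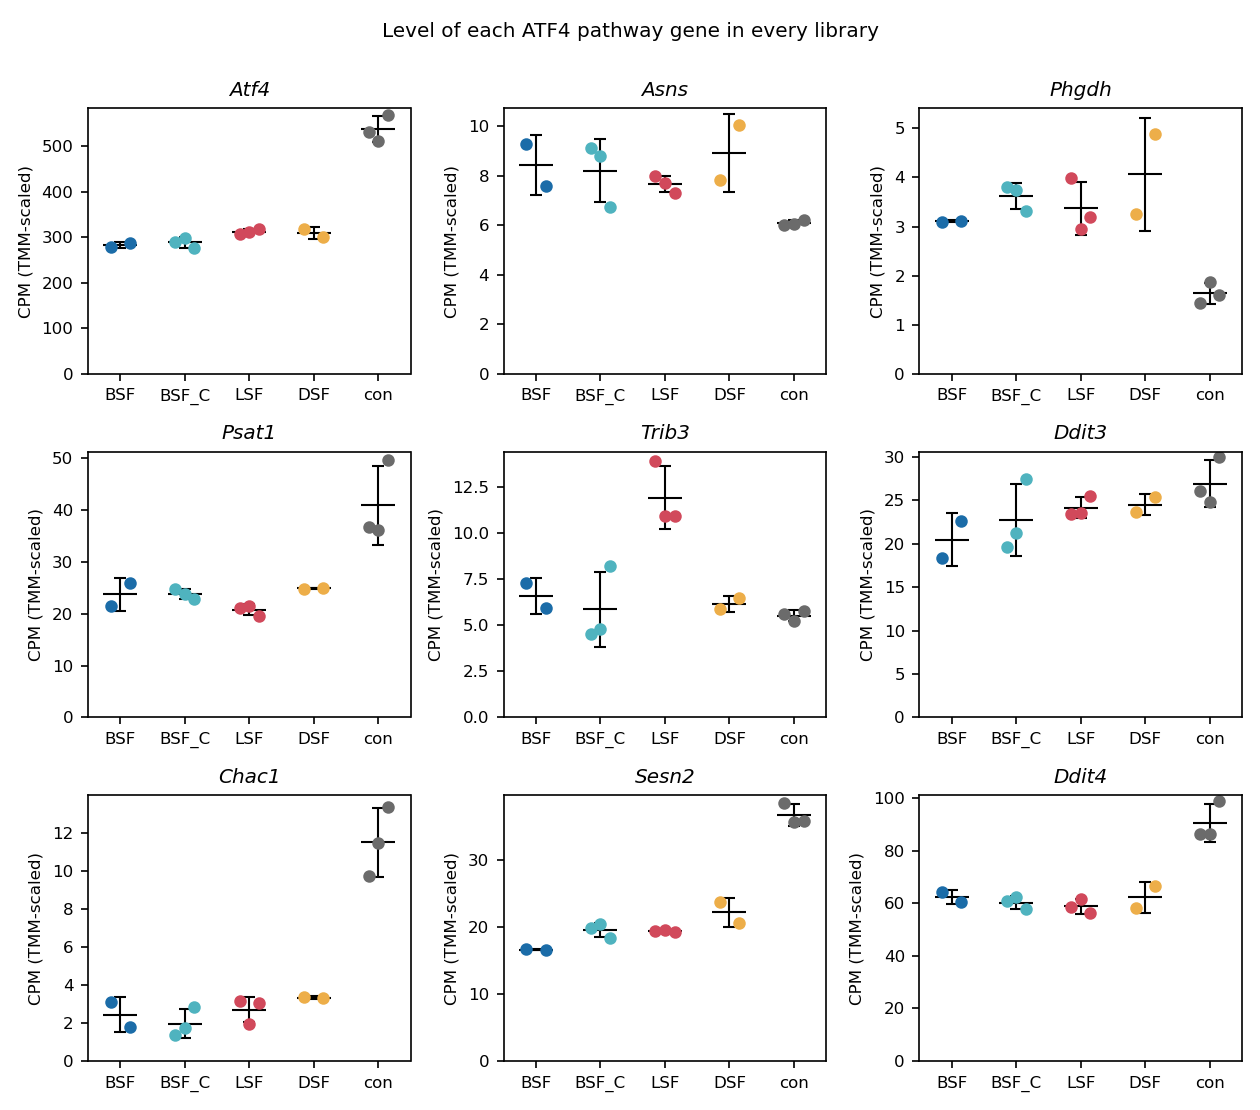
Level of each of the 9 genes in every library (points, TMM-scaled CPM on a linear axis from 0), with the mean and SD of each group, for BSF, BSF_C, LSF, DSF and con. Atf4, Chac1, Sesn2, Psat1 and Ddit4 are highest in all 3 con libraries, Phgdh is lowest there, and Trib3 is highest in the 3 LSF libraries, at 10.9 to 13.9 CPM.

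Set against con, the message of Atf4 itself was lower in all 4 feeding groups, as were those of the glutathione-degrading enzyme Chac1, the mTORC1 inhibitors Sesn2 and Ddit4, and the serine pathway enzyme Psat1. Phgdh, the enzyme that opens that same serine pathway, was higher in all 4. Trib3 was higher than con in LSF alone by this test, and Asns passed it in DSF only. The members did not move as a block, and the share of them that was called was close to that of all genes. Of the 9 members, 7 were called in BSF against con (1 higher, 6 lower), where 70.2% of all tested genes were called, 38.3% higher and 31.9% lower. In BSF_C against con 6 were called (1 higher, 5 lower), against 73% of all genes (39.8% higher, 33.2% lower). In LSF against con 7 were called (2 higher, 5 lower), against 72% (38.9% higher, 33% lower), and in DSF against con 7 (2 higher, 5 lower), against 67.7% (36.6% higher, 31.1% lower). The 4 comparisons share the con libraries. The members' median log2 fold change against con was -0.54 for BSF, -0.58 for BSF_C, -0.62 for LSF and -0.54 for DSF, where the median over all tested genes lay between 0.10 and 0.12.

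A call here means an adjusted p under 0.05 in edgeR's quasi-likelihood test, two-sided, with Benjamini-Hochberg adjustment over all 14300 genes. In bulk RNA from sorted cells, fewer cells that express a gene and less of its RNA per cell cannot be told apart. Immediate early genes such as Fos and Egr1, which rise when cells are handled or stimulated, summed to 1393 to 1422 CPM in BSF and 1447 to 1474 CPM in BSF_C, to 2763 to 2852 CPM in LSF and 2457 to 2496 CPM in DSF, and to 5904 to 6652 CPM in con. The part of these genes, of the other marker lists and of the lower depth of con in the differences from con was not tested.

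Atf4 (chr15:80255184-80257541, GRCm38, plus strand, GENCODE M21) encodes the transcription factor that drives the response. It had 279 and 288 CPM in BSF, 290.3, 299.5 and 277 CPM in BSF_C, 306.5, 312 and 317.5 CPM in LSF and 318 and 300.3 CPM in DSF, against 532, 512.5 and 569 CPM in con. The 3 con libraries lay above the 10 others with no overlap, and those 10 spanned a narrow range. The fall was 0.92 on the log2 scale in BSF (SE 0.06, adjusted p = 6.85e-20), or 1.90-fold, and it was 1.86-fold in BSF_C. In LSF it was 1.72-fold and in DSF 1.74-fold. Of the members, Atf4 had the smallest standard errors, at 0.05 to 0.06 in these comparisons.

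Asparagine synthetase, encoded by Asns (chr6:7675169-7693254, minus strand), makes asparagine and is a standard reporter of the response. Its level was 9.29 and 7.58 CPM in BSF, 9.09, 8.78 and 6.73 CPM in BSF_C, 7.97, 7.71 and 7.31 CPM in LSF and 7.81 and 10.0 CPM in DSF, against 5.99, 6.03 and 6.22 CPM in con. Although Atf4 mRNA was highest in con, all 3 con libraries were the lowest for Asns, without overlap. Only DSF against con passed the test, at 0.55 ± 0.22 on the log2 scale (SE, adjusted p = 0.0269). BSF against con reached 0.46 ± 0.22 with an adjusted p of 0.0614, BSF_C 0.43 ± 0.21 with 0.0555, and LSF 0.34 ± 0.21 with 0.147. The DSF call was lost under the Wald test of DESeq2 (adjusted p = 0.063) and without con replicate 1 (0.0557), con replicate 2 (0.0517) or DSF library S3 (log2 fold change 0.36, adjusted p = 0.272). Conversely, BSF passed without BSF replicate 2 (0.0498) and BSF_C without BSF_C replicate 3 (0.0246).

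Phgdh and Psat1 stand next to each other in serine synthesis from glycolysis, Phgdh (chr3:98313170-98339990, minus strand) as the dehydrogenase that opens the route and Psat1 (chr19:15904678-15947337, minus strand) as the aminotransferase that follows. They moved in opposite directions against con. Phgdh had 3.10 and 3.12 CPM in BSF, 3.81, 3.75 and 3.31 CPM in BSF_C, 3.98, 2.96 and 3.19 CPM in LSF and 3.25 and 4.88 CPM in DSF, against 1.45, 1.87 and 1.61 CPM in con. No con library reached the lowest of the others. Its log2 fold change was 0.91 ± 0.38 in BSF (adjusted p = 0.0286) and 1.13 ± 0.34 in BSF_C. It was 1.03 ± 0.35 for LSF and 1.30 ± 0.36 for DSF. With 7, 9 and 7 counts in the con libraries, these folds had the largest standard errors of the 9 members. The BSF call was lost under the Wald test of DESeq2 (adjusted p = 0.0649) and when con replicate 1, con replicate 3 or either BSF library was left out (0.0552 to 0.0915), and the DSF call was lost without DSF library S3 (0.0583).

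Psat1 had 21.5 and 26.0 CPM in BSF, 24.8, 23.8 and 22.9 CPM in BSF_C, 21.1, 21.6 and 19.5 CPM in LSF and 24.9 in both DSF libraries, against 36.8, 36.2 and 49.8 CPM in con. The con libraries lay above all others, with replicate 3 far above the other libraries of its group. Its fall on the log2 scale was 0.77 in BSF (SE 0.12, adjusted p = 3.41e-07), and 0.77 for BSF_C, 0.97 for LSF and 0.71 for DSF. A processed pseudogene, Gm3329, lies within the Psat1 locus on the opposite strand. Whether reads were counted by strand is not given in the sources used here.

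Trib3 (chr2:152337422-152344032, minus strand) encodes a pseudokinase that ATF4 and CHOP induce and that restrains ATF4 in turn. It had 7.27 and 5.91 CPM in BSF, 4.54, 4.80 and 8.20 CPM in BSF_C, 13.9, 10.9 and 10.9 CPM in LSF and 5.85 and 6.46 CPM in DSF, against 5.58, 5.198 and 5.76 CPM in con. The 3 LSF libraries lay above the 10 others, and the ranges of BSF_C and con overlapped. LSF exceeded con by 1.11 ± 0.21 on the log2 scale (adjusted p = 7.54e-06), or 2.16-fold. The log2 fold change against con was 0.25 ± 0.26 for BSF, 0.08 ± 0.24 for BSF_C and 0.16 ± 0.26 for DSF, none of them called (adjusted p = 0.388, 0.757 and 0.595).

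Ddit3 (chr10:127290774-127296288, plus strand) encodes CHOP, the stress factor that acts beside ATF4. Its level was 18.3 and 22.6 CPM in BSF, 19.6 to 27.4 CPM in BSF_C, 23.4 to 25.5 CPM in LSF and 23.7 and 25.3 CPM in DSF, against 24.7 to 29.9 CPM in con. Only BSF was clear of con, with a change of -0.38 ± 0.14 on the log2 scale (adjusted p = 0.0135), and that call was lost when libraries were scaled by their totals alone (adjusted p = 0.19) and without con replicate 3 (0.0675) or BSF replicate 1 (log2 fold change -0.25, adjusted p = 0.178). BSF_C against con, at -0.24 and an adjusted p of 0.0804, passed without con replicate 2 (0.0483) or BSF_C replicate 3 (-0.40, adjusted p = 0.00659). Ddit3 overlaps Mars and Gm4189 on the opposite strand, and without a stated strand setting its counts are uncertain. GENCODE M21 also has 2 genes under the symbol Ddit3, and the exon length behind its level per kilobase joins both.

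Chac1 (chr2:119351229-119354381, plus strand), whose enzyme breaks down glutathione, showed the largest fold of the 9 members against con. It had 3.10 and 1.78 CPM in BSF, 1.35, 1.76 and 2.82 CPM in BSF_C, 3.14, 1.93 and 3.06 CPM in LSF and 3.38 and 3.30 CPM in DSF, against 9.70, 11.4 and 13.4 CPM in con. The lowest con library had more than any of the other 10. Chac1 was 4.77-fold lower in BSF (log2 fold change -2.25 ± 0.29, adjusted p = 1.14e-09) and 5.77-fold lower in BSF_C. It was 4.21-fold lower in LSF and 3.42-fold lower in DSF.

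Sesn2 and Ddit4 both encode inhibitors of mTORC1, Sesn2 (chr4:132492032-132510501, minus strand) a leucine-binding sestrin and Ddit4 (chr10:59949669-59951834, minus strand) the protein REDD1. Sesn2 had 16.7 and 16.6 CPM in BSF, 19.9, 20.5 and 18.4 CPM in BSF_C, 19.4, 19.5 and 19.3 CPM in LSF and 23.8 and 20.7 CPM in DSF, against 38.6, 35.8 and 35.9 CPM in con. Every con library was well above every other library. The log2 fold change was -1.14 ± 0.13 in BSF (adjusted p = 1.63e-11), and -0.91 ± 0.11 for BSF_C, -0.92 ± 0.11 for LSF and -0.72 ± 0.12 for DSF. Another annotated gene, Gm12981, overlaps the Sesn2 span on the same strand, and its part in the Sesn2 counts was not tested. Ddit4 had 60.4 to 64.1 CPM in BSF, 57.7 to 62.2 CPM in BSF_C, 56.1 to 61.7 CPM in LSF and 58.0 to 66.4 CPM in DSF, against 86.3 to 98.8 CPM in con. Its fall was 0.54 to 0.62 on the log2 scale in the 4 groups, without overlap with con.

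**Figure D2:**
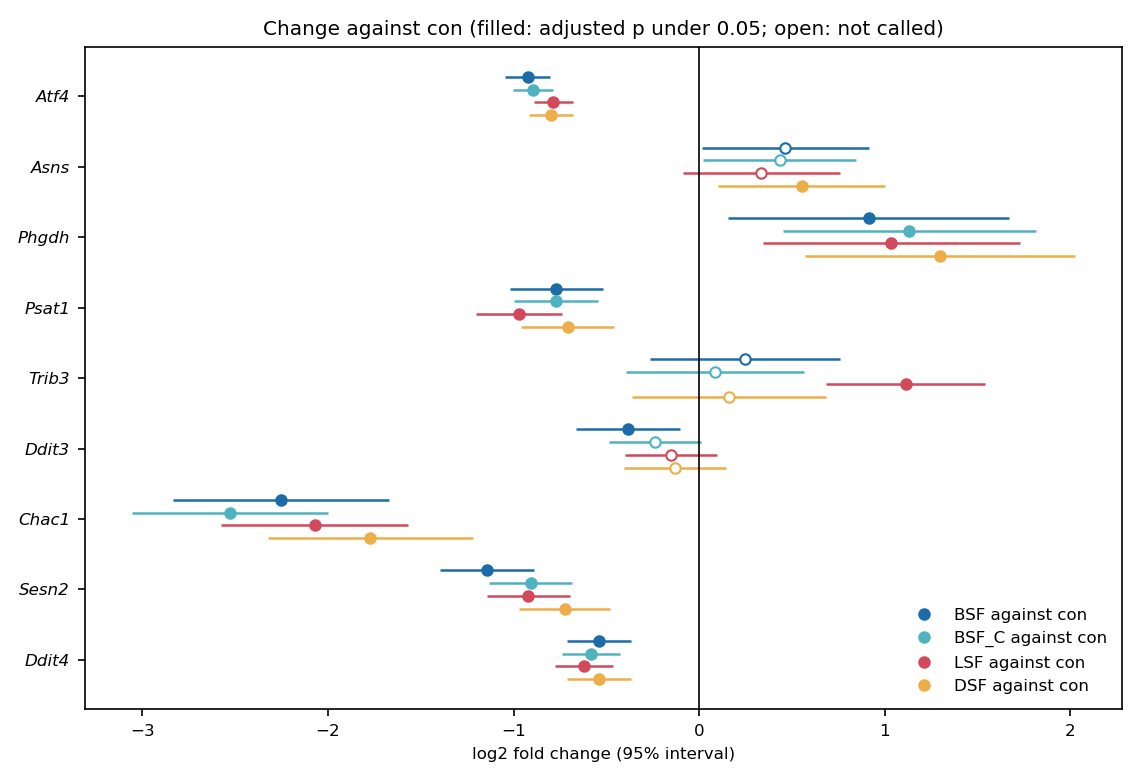
Log2 fold change of each of the 9 genes in BSF, BSF_C, LSF and DSF against con (points) with its 95% interval (lines), filled where the adjusted p was under 0.05. Atf4, Psat1, Chac1, Sesn2 and Ddit4 lie left of 0 and Phgdh right of 0 in all 4 groups, while Trib3 is filled in LSF only, at 1.11.

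Among the feeding patterns themselves, without con, 1 member stood out. Trib3 was lower in BSF and in BSF_C than in LSF, and higher in LSF than in DSF, each by about the same amount. Sesn2 was slightly lower in BSF than in DSF, a call that rested on the setting. The remaining 7 members, Atf4 among them, were not called in any of the 6 comparisons. In BSF against LSF 1 of 9 members was called, where 29.3% of all genes were, and in BSF_C against LSF 1 of 9, where 32.7% were. In LSF against DSF it was 1 of 9 against 15.9% of all genes, and in BSF against DSF 1 of 9 against 12%. In BSF_C against DSF 0 of 9 members were called by edgeR, against 11.9% of all genes, with 1 member (Chac1) at an unadjusted p under 0.05 and 0 called by DESeq2 or limma-voom. The members' median log2 fold change was -0.14 in BSF against LSF, 0.01 in BSF_C against LSF and -0.20 in LSF against DSF, where that of all genes was between -0.00037 and 0.0097. Of all genes called, 45.8% were higher in BSF than in LSF, 47.6% higher in BSF_C than in LSF and 56.5% higher in LSF than in DSF. Scaled by library totals alone, these shares were 62.9%, 63.3% and 38.0%.

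Trib3 in the libraries given above ranged from 4.54 to 8.20 CPM outside LSF and from 10.9 to 13.9 CPM within it. On average it had 6.59 ± 0.963 CPM in BSF (SD, n = 2) and 5.85 ± 2.04 CPM in BSF_C (n = 3), against 11.9 ± 1.72 CPM in LSF (n = 3). BSF was 1.82-fold lower than LSF (log2 fold change -0.87 ± 0.21, adjusted p = 0.000977) and BSF_C 2.04-fold lower (-1.03 ± 0.19, adjusted p = 1.41e-05). LSF was 1.94-fold higher than DSF, at 11.9 ± 1.72 CPM in LSF and 6.16 ± 0.432 CPM in DSF (0.95 ± 0.21, adjusted p = 0.000632). The 95% intervals were -1.28 to -0.45 for BSF against LSF, -1.401 to -0.66 for BSF_C against LSF and 0.53 to 1.38 for LSF against DSF. Without BSF replicate 2 the BSF value was -0.71, with an adjusted p of 0.0551, and every other setting tried kept the 3 calls. BSF against DSF gave 0.09 with an interval of -0.42 to 0.59, and BSF_C against DSF -0.08 with an interval of -0.54 to 0.39.

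Marker sums also differed between these groups. The immediate early genes summed to 1393 to 1422 CPM in BSF and 1447 to 1474 CPM in BSF_C, against 2763 to 2852 CPM in LSF, which was the highest of the feeding groups, with 2457 to 2496 CPM in DSF. The heart muscle list summed to 328 to 365 CPM in LSF and 363 to 364 CPM in DSF, and leukocyte genes to 109.5 to 111 CPM in LSF and 106 to 108 CPM in DSF. Both lists were lower in BSF, at 188 to 203.5 CPM for heart muscle and 66.5 to 73.2 CPM for leukocytes. The part of handling or of other cells in the Trib3 difference was not tested.

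Atf4 mRNA differed little where Trib3 differed most. It averaged 283 ± 6.52 CPM in BSF (n = 2) and 289 ± 11.4 CPM in BSF_C (n = 3), against 312 ± 5.50 CPM in LSF (n = 3). The libraries of BSF and BSF_C lay below those of LSF without overlap, and the log2 fold change was -0.14 ± 0.06 in BSF against LSF (adjusted p = 0.0695) and -0.11 ± 0.05 in BSF_C against LSF (adjusted p = 0.102). BSF against LSF passed under the Wald test of DESeq2 (adjusted p = 0.0492), when only the 2 groups were fitted (0.00615) and when con was left out (0.0103). BSF_C against LSF passed when only its own groups were fitted (0.0135) and when con was left out (0.0182). LSF against DSF gave 0.01, with a 95% interval of -0.11 to 0.13.

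Sesn2 averaged 16.7 ± 0.0611 CPM in BSF (n = 2) and 22.3 ± 2.19 CPM in DSF (n = 2), with no overlap. The log2 fold change was -0.42 ± 0.14, with an adjusted p of 0.0372. The call was lost under the Wald test of DESeq2 (adjusted p = 0.075), with no filter on low counts (0.0532), and without BSF replicate 1 (0.141), BSF replicate 2 (0.182) or DSF library S2 (0.339). Chac1 averaged 1.97 ± 0.756 CPM in BSF_C and 3.34 ± 0.0594 CPM in DSF, with libraries that did not overlap, and the log2 fold change of -0.76 had an adjusted p of 0.15. The serine enzyme Psat1 was at 20.8 ± 1.07 CPM in LSF and 24.9 ± 0.0625 CPM in DSF, with a log2 fold change of -0.26 and an adjusted p of 0.177.

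BSF_C against BSF addresses whether the group labelled as breakfast skipping with control differs from breakfast skipping alone. For these 9 genes no difference was detected. edgeR called 0 of the 9 members, with 0 at an unadjusted p under 0.05, and DESeq2 and limma-voom also called 0, where 0.133% of all genes were called. The log2 fold changes ran from -0.27 for Chac1 to 0.23 for Sesn2. The 95% intervals show how much the libraries could have hidden. For Atf4 the interval was -0.09 to 0.15, for Trib3 -0.62 to 0.29, for Sesn2 -0.02 to 0.49 and for Chac1 -0.99 to 0.44.

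**Figure D3:**
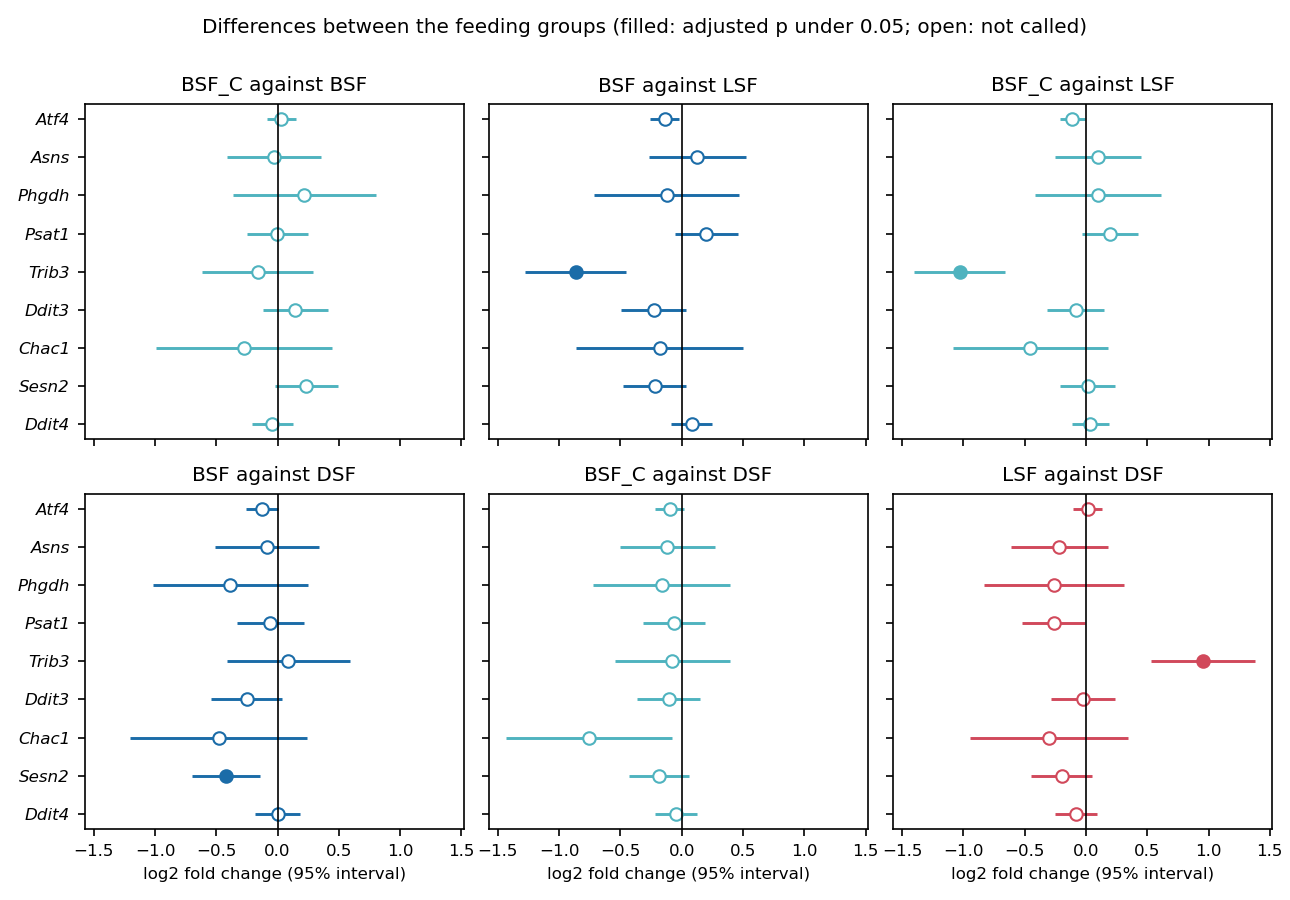
Log2 fold change of the 9 genes (points) with its 95% interval (lines) in the 6 comparisons that do not use con, filled where the adjusted p was under 0.05. Trib3 is filled in BSF against LSF, BSF_C against LSF and LSF against DSF, Sesn2 in BSF against DSF, and every other point is open.

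The order of the groups differed from member to member. From the highest group mean to the lowest, Atf4 ran con, LSF, DSF, BSF_C, BSF, and Trib3 ran LSF, BSF, DSF, BSF_C, con. Asns ran DSF, BSF, BSF_C, LSF, con, and Phgdh DSF, BSF_C, LSF, BSF, con. Ddit3 ran con, DSF, LSF, BSF_C, BSF, and Chac1 con, DSF, LSF, BSF, BSF_C. Sesn2 ran con, DSF, BSF_C, LSF, BSF, Psat1 con, DSF, BSF_C, BSF, LSF, and Ddit4 con, BSF, DSF, BSF_C, LSF. Neighbours in these orders within the 4 feeding groups were not separated by the test, apart from LSF and BSF for Trib3. The highest mean among the 4 feeding groups was 2.03 times the lowest for Trib3, 1.69 times for Chac1, 1.34 times for Sesn2, 1.31 times for Phgdh and at most 1.2 times for the other 5.

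The patterns over the 13 libraries were compared by the root mean square difference of centred log2 CPM, which is 0 for identical patterns. Atf4 was most like Sesn2 among the members (0.107), then Ddit4 (0.153) and Psat1 (0.158). It lay far from Phgdh (0.82), Trib3 (0.681) and Chac1 (0.667). The measure also grows with the size of a change, and Chac1, like Atf4, was highest in con. The widest step in the Atf4 pattern is the one between con and the rest. Over all genes with a mean of at least 5 CPM, the most like Atf4 were Zdhhc9 (0.0368) and Coro1c (0.0403). For Trib3 they were Cobl (0.217), at 311 CPM in LSF and 147 to 180.1 CPM in the other groups, and Scin (0.22), at 53.3 CPM in LSF and 25.6 to 32.5 CPM elsewhere. Cobl and Scin encode proteins that act on actin filaments. The nearest to Sesn2 was Slc35f6 (0.0794), to Psat1 Mboat7 (0.0879), to Ddit4 Cic (0.0348), to Ddit3 Ctns (0.0845), to Asns Ssr4 (0.117), to Phgdh Galt (0.133) and to Chac1 Tor3a (0.317).

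A further 119 genes of the pathway, in 8 lists by role, were in the table, and 115 passed the filter. Fgf21, Stc2, Slc7a3 and Castor1 did not. Of these 115, BSF had 43 higher and 39 lower than con (71.3%), BSF_C 47 higher and 41 lower (76.5%), LSF 43 higher and 44 lower (75.7%) and DSF 47 higher and 38 lower (73.9%), near the shares of all genes given above. The median log2 fold change over them was 0.08 for BSF, 0.04 for BSF_C, 0.02 for LSF and -0.02 for DSF.

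In BSF against con, 38.3% of all genes were called higher and 31.9% lower, and by list the calls fell as follows. Of 18 sensor kinases and eIF2 factors, 7 were higher and 8 lower, and of 10 partner factors and stress effectors 5 and 3. Of 8 serine, glycine and folate enzymes, 1 was higher and 2 lower, and of 13 other amino acid synthesis enzymes 5 and 3. Of 20 aminoacyl-tRNA synthetases 11 were higher and 3 lower, of 31 mTORC1 sensing genes 10 and 13, and of 6 glutathione genes 3 and 1.

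Amino acid transporters were mostly lower than in con. Of 9 tested, 6 fell and 1 rose in BSF and likewise in DSF, while 7 fell and 1 rose in BSF_C and likewise in LSF. Of all genes, 31.1% to 33.2% fell in these comparisons. The median log2 fold change of the 9 was -0.73 for BSF, -0.79 for BSF_C, -1.004 for LSF and -0.69 for DSF, against 0.10 to 0.12 for all genes. The arginine and lysine carrier Slc7a1 had 209 ± 8.73 CPM in BSF, 208 ± 4.79 CPM in BSF_C, 177 ± 9.82 CPM in LSF and 194 ± 1.38 CPM in DSF, against 658 ± 52.2 CPM in con. Slc7a5, the light chain of a leucine transporter, was at 31.2 to 33.0 CPM in the 4 groups and 68.8 ± 3.83 CPM in con, and the glutamine carrier Slc1a5 at 58.3 to 72.5 CPM and 131 ± 14.4 CPM. Slc3a2, the heavy chain that pairs with Slc7a5, was the one that was higher, at 237 CPM in BSF, 253 CPM in BSF_C, 341.5 CPM in LSF and 252 CPM in DSF, against 180.0 CPM in con.

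Single genes of other arms also stood far from con. Among partner factors, Atf3, a repressor that ATF4 induces and that is itself an immediate early gene, had 38.9 ± 1.13 CPM in BSF, 42.0 ± 0.669 CPM in BSF_C, 91.5 ± 2.05 CPM in LSF and 90.1 ± 6.33 CPM in DSF, against 326 ± 18.4 CPM in con. Cebpb, a C/EBP partner of ATF4, had 124 to 143 CPM in the 4 groups and only 0.999 ± 0.423 CPM in con, from 3 to 7 counts per library. Ppp1r15a (GADD34), which reverses eIF2 phosphorylation, had 18.9 CPM in BSF, 19.7 CPM in BSF_C, 35.8 CPM in LSF and 36.8 CPM in DSF, against 121 ± 8.74 CPM in con. Gpt, an alanine aminotransferase, had 358 CPM in BSF, 363 CPM in BSF_C, 529 CPM in LSF and 341 CPM in DSF, against 53.4 ± 4.53 CPM in con. Bcat1, an aminotransferase of branched-chain amino acids, had no count in con, and against a floor of 3 counts summed over the con libraries it was at least 16.4-fold higher in BSF, at least 21.9-fold higher in BSF_C, at least 23.9-fold higher in LSF and at least 16.2-fold higher in DSF.

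In the comparisons without con, several serine and one-carbon enzymes and tRNA synthetases were higher in BSF and BSF_C than in LSF. Of all genes, 13.4% were called higher in BSF than in LSF, 15.6% higher in BSF_C than in LSF and 6.91% lower in LSF than in DSF. Of 8 serine, glycine and folate enzymes, 3 were higher and 2 lower in BSF than in LSF, 3 higher and 1 lower in BSF_C than in LSF, and 0 higher and 1 lower in LSF than in DSF. The list's median log2 fold change was 0.27, 0.24 and 0.0033. The mitochondrial serine hydroxymethyltransferase Shmt2 had 87.3 ± 4.29 CPM in BSF, 86.9 ± 8.48 CPM in BSF_C, 56.6 ± 1.67 CPM in LSF and 84.5 ± 8.98 CPM in DSF. The log2 fold change was 0.62 ± 0.08 in BSF against LSF (adjusted p = 3.46e-08) and -0.58 ± 0.08 in LSF against DSF (adjusted p = 3.52e-07). The libraries of LSF lay below those of the other groups. Mthfd2, the next mitochondrial folate enzyme, had 22.0 ± 2.06 CPM in BSF and 20.02 ± 1.29 CPM in BSF_C, against 12.2 ± 1.15 CPM in LSF, with 14.8 ± 0.703 CPM in DSF. Aldh1l2, which oxidises mitochondrial formyl-folate, went the other way, at 2.42 ± 0.58 CPM in BSF and 2.52 ± 1.08 CPM in BSF_C, against 5.49 ± 2.07 CPM in LSF.

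Of 20 aminoacyl-tRNA synthetases, which load tRNAs with amino acids, 6 were higher and 1 lower in BSF than in LSF, 8 higher and 0 lower in BSF_C than in LSF, and 0 higher and 4 lower in LSF than in DSF. Their median log2 fold change was 0.22, 0.21 and -0.13, against 0.0078, 0.0097 and -0.00037 for all genes. Nars, for asparagine, had 207.5 ± 2.71 CPM in BSF and 205 ± 5.94 CPM in BSF_C, against 151 ± 7.38 CPM in LSF, with 198 ± 2.20 CPM in DSF. The log2 fold change was 0.46 ± 0.06 in BSF against LSF and -0.39 ± 0.06 in LSF against DSF. Asns, which makes the asparagine that Nars uses, was not called in these comparisons.

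Over all 115 pathway genes, 23 were higher and 17 lower in BSF than in LSF (34.8%, against 29.3% of all genes), and 25 higher and 15 lower in BSF_C than in LSF (34.8%, against 32.7%). LSF against DSF gave 12 higher and 15 lower (23.5%, against 15.9%), BSF against DSF 7 higher and 6 lower (11.3%, against 12%) and BSF_C against DSF 6 higher and 5 lower (9.57%, against 11.9%). In BSF against LSF the remaining lists gave 5 higher and 2 lower for sensor kinases and eIF2 factors, 1 and 2 for partner factors, 2 and 2 for other amino acid synthesis, 3 and 1 for transporters, 3 and 6 for mTORC1 sensing and 0 and 1 for glutathione genes. The transporter subunit Slc3a2 was lower in BSF than in LSF, by a log2 fold change of -0.53 ± 0.06, and higher in LSF than in DSF, by 0.44 ± 0.06. Atf3 was lower in BSF than in LSF (-1.24 ± 0.08) and than in DSF (-1.21 ± 0.09), and Ppp1r15a likewise (-0.93 ± 0.11 and -0.96 ± 0.12), in step with the immediate early genes. The part of handling or stimulation in these 2 genes was not tested.

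Of all genes, 12% were called in BSF against DSF, 11.9% in BSF_C against DSF and 15.9% in LSF against DSF. Of the 31 mTORC1 sensing genes, 1 was higher and 1 lower in BSF than in DSF. In BSF_C 0 were higher and 1 lower than in DSF, and in LSF 4 were higher and 1 lower than in DSF. The 1 gene lower than DSF in all 3 comparisons was Sesn1. This sestrin, a relative of Sesn2, had 49.8 ± 4.21 CPM in BSF, 52.0 ± 1.99 CPM in BSF_C, 62.8 ± 1.398 CPM in LSF and 90.6 ± 3.73 CPM in DSF, with 60.3 ± 2.49 CPM in con. DSF lay above every other group without overlap. The log2 fold change was -0.87 ± 0.09 in BSF against DSF (adjusted p = 5.83e-11), -0.80 ± 0.08 in BSF_C against DSF and -0.53 ± 0.08 in LSF against DSF. Sesn2 had its highest mean among the feeding groups in DSF as well, as given above. Ddit4l, the paralog of Ddit4, was picked after its values were seen and lies below the level set for named genes, with 0.392 ± 0.397 CPM in BSF, 1.01 ± 0.164 CPM in BSF_C, 1.61 ± 0.39 CPM in LSF and 0.457 ± 0.273 CPM in DSF, and 0.714 ± 0.103 CPM in con.

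**Figure D4:**
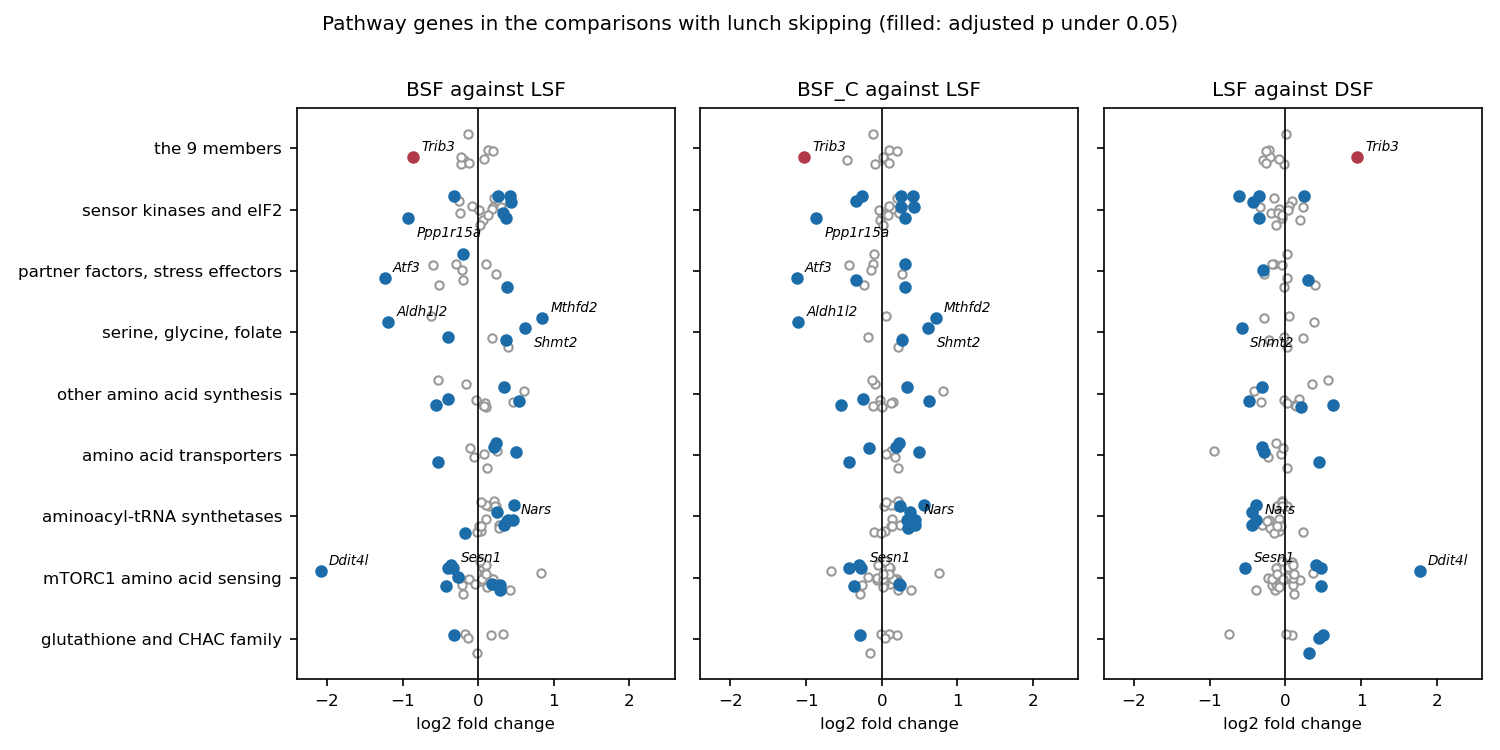
Log2 fold change of the 9 members and of 115 further pathway genes in 8 lists (1 point per gene, spread vertically only for legibility) in BSF against LSF, BSF_C against LSF and LSF against DSF, filled where the adjusted p was under 0.05. Trib3 is the only filled member, at -0.87, -1.03 and 0.95, and Shmt2 and Nars lie on the opposite side of 0 from it in each panel.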

How the data were processed

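Raw read counts per gene were deposited by the authors as whole numbers with no normalization. Per the submitters' processing notes, the tools were STAR 2.7.2e, cutadapt 2.9, DESeq2 1.32.0 and FastQC 0.11.8, and the builds mm10 and GRCm38. The annotation and strand setting are not given in the sources used here. Of the symbols, 21689 (99.2%) matched GENCODE M21, which gave coordinates and exon lengths. Columns were matched to labels by name. DSF columns are marked S2 and S3 and carry no replicate number.

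Genes were filtered with filterByExpr (14300 genes, 99.91% of counts), scaled by TMM and tested in edgeR 4.0.16 (R 4.3.3), with 1 quasi-likelihood fit of 13 libraries, group as the only term and 8 residual degrees of freedom. P-values were adjusted by Benjamini-Hochberg per comparison over all genes, with a threshold of 0.05, in 10 comparisons. The SE is the log2 fold change over the square root of F. The biological coefficient of variation was 4.9%. The procedure was tested on simulated data. Replicates differed by more than sampling noise (chi-square per degree of freedom 1.37 to 3.93). The members and gene lists were chosen with earlier results of these data known. All members were named. From each list, up to 3 called genes per comparison with the largest change and at least 5 CPM in the higher group could be named, and 2 nearest genes per member. Alternatives were other scalings, DESeq2 1.42.0, limma-voom (limma 3.58.1), no filter, smaller fits, a replicate block and leaving out each library. Floors and intervals cover counting error or library spread only. A marker gene is not reported here.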

Additional observations from a re-analysis of the deposited data

How the results depend on the processing

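Of 1116 log2 fold changes of members recomputed under the alternatives, 1048 kept their direction and side of the threshold. Counts of genes and members called are not among these values. They were judged apart, by whether they stayed within 1.5 times. No member called in the main analysis changed sign. Same-numbered libraries did not deviate together (r from -0.13 to 0.068 over 15 pairs), and under a replicate block, in which DSF was dropped for lack of numbers, 1 member changed its call: Phgdh in BSF against con (0.86, adjusted p = 0.0534). Counts of all genes moved most in BSF_C against BSF, with 19 calls in the main analysis, 2 under the Wald test of DESeq2, 4 under limma-voom, 30 with no filter, 32 with only the 2 groups fitted, 29 with con left out and 12 to 23 when 1 library was left out. Leaving out 1 library gave 2557 to 3493 genes for BSF against LSF (4190 with all), 798 to 920 for BSF against DSF (1720; 1111 under DESeq2), 848 to 1324 for BSF_C against DSF (1696) and 1288 to 1866 for LSF against DSF (2271). Members called in BSF against LSF were 2 under the Wald test of DESeq2, with only the 2 groups fitted and with con left out, and 0 to 1 without 1 library. In BSF against DSF they were 0 under DESeq2 and with no filter and 0 to 1 without 1 library, and in BSF_C against LSF 2 with only the 2 groups fitted and with con left out. The cause of these changes was not tested. Against con, Asns became called under totals alone in BSF (0.64, adjusted p = 0.00992) and BSF_C (0.60, adjusted p = 0.00809). Totals alone moved the median change over all genes (log2) against con to 0.29 for BSF, 0.28 for BSF_C, 0.20 for LSF and 0.26 for DSF.

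Log2 fold changes that crossed 0 were all of members not called. Under totals alone they were 0.028 for Ddit3 in DSF against con, 0.016 for Ddit4 in BSF against DSF and -0.047 for Atf4 in LSF against DSF. Ddit4 in BSF against DSF was 0.0013 under limma-voom, Psat1 in BSF_C against BSF 0.00037 with the size factors of DESeq2 and 0.0028 under its Wald test, and Asns there 0.027 under the replicate block. Without 1 library, the range was -0.25 to 0.22 for Trib3 in BSF_C against con. In BSF_C against BSF it was -0.18 to 0.11 for Asns, -0.65 to 0.14 for Chac1, -0.011 to 0.31 for Ddit3 and -0.12 to 0.14 for Psat1. In BSF against LSF it was -0.017 to 0.28 for Asns, -0.60 to 0.19 for Chac1 and -0.21 to 0.017 for Phgdh. In BSF_C against LSF it was -0.24 to 0.0065 for Ddit3 and -0.020 to 0.057 for Sesn2. In BSF against DSF it was -0.26 to 0.10 for Asns, -0.094 to 0.097 for Ddit4, -0.21 to 0.060 for Psat1 and -0.061 to 0.24 for Trib3. In BSF_C against DSF it was -0.29 to 0.068 for Asns, -0.14 to 0.051 for Ddit4, -0.43 to 0.15 for Phgdh and -0.40 to 0.070 for Trib3. In LSF against DSF it was -0.031 to 0.054 for Atf4, -0.070 to 0.025 for Ddit3, -0.18 to 0.016 for Ddit4 and -0.53 to 0.056 for Phgdh.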
